A study of Mus musculus with 6 samples.

Results

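The genes of collagen chains were followed in RNA from mouse liver. Every gene symbol made of Col, a number, the letter a and a second number was taken from the deposited count table, which gave 41 of 20914 listed genes. They were divided by the kind of chain they encode into 10 fibrillar, 6 basement membrane and 25 other collagens. The study has 6 libraries, 3 labelled PBS and 3 labelled DOX. All 6 liver libraries carry the genotype label BucheKI/KI-Hep, with CKI and Alb-Cre in the titles, so the controls hold the same knock-in as the DOX group. Alb-Cre is a Cre recombinase driven by the albumin promoter, which is active in hepatocytes. All 6 also carry the label of BDL treatment, by which bile duct ligation is usually meant in mouse liver work. There is no group without BDL here, so the collagen levels below are those of BDL livers throughout. The labels do not explain DOX, S10D or CKI, and the sources used here do not give the age and sex of the mice. Nor do they say that each library is a separate animal, so every p-value rests on spread among 6 libraries that may partly be technical.

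Total gene counts per library were 32826493 to 41102844. Bche, the gene of butyrylcholinesterase overexpressed by design, stood at 192.8 to 244.9 CPM in PBS and 447.5 to 969.2 CPM in DOX (edgeR quasi-likelihood adjusted p = 0.106). CPM are read counts relative to the library total, scaled to 1e+06 and between libraries by the TMM method. All 9 hepatocyte marker genes in the table were measured in every library. The library DOX 3 stood apart for collagens, with 0.111% of its counts on the 41 genes against 0.151% to 0.169% in the other 5, and the fold changes of the named collagen genes, the class medians and the class sums are therefore also given without it.

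A collagen molecule is a triple helix of chains with a short repeat that begins with glycine. Fibrillar collagens (types I, III, V, XI and their relatives) are secreted as procollagens, trimmed and packed into the cross-linked fibres that make scar tissue stiff. Type IV collagens form the sheet-like net of basement membranes under epithelia and around vessels. The others include the beaded filaments of type VI, collagens that sit on the surface of fibrils (FACIT), the multiplexins XV and XVIII, whose C-terminal parts can be released as fragments such as endostatin, and chains anchored in the cell membrane. In fibrotic liver, activated stellate cells and portal fibroblasts are known as the main makers of fibrillar collagen, whereas hepatocytes are a known source of collagen XVIII. After bile duct ligation, scar tissue first builds up around the portal tracts.

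Collagen transcripts in these livers were dominated by Col18a1, the chain of collagen XVIII. On the FPKM scale, which divides counts by gene length and so allows genes to be compared, Col18a1 held a mean of 62.2% of the summed FPKM of the 41 genes (54.3% to 73.7% per library). Its level was 136.1 ± 7.27 FPKM in PBS and 126.5 ± 12.4 in DOX (SD over 3 libraries). Next came Col3a1, the chain of type III collagen, with a mean of 19.0 FPKM over the 6 libraries. Col4a1 of basement membranes followed with 15.5 FPKM. The type I chains Col1a2 and Col1a1 had 10.8 and 9.52 FPKM, and Col4a2 had 8.48. Neighbours in this order below Col18a1 overlapped between libraries, as Col3a1 ranged over both sides of Col4a1 in DOX. All other members had a mean under 4 FPKM, led by Col6a1 with 3.51.

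**Figure D1:**
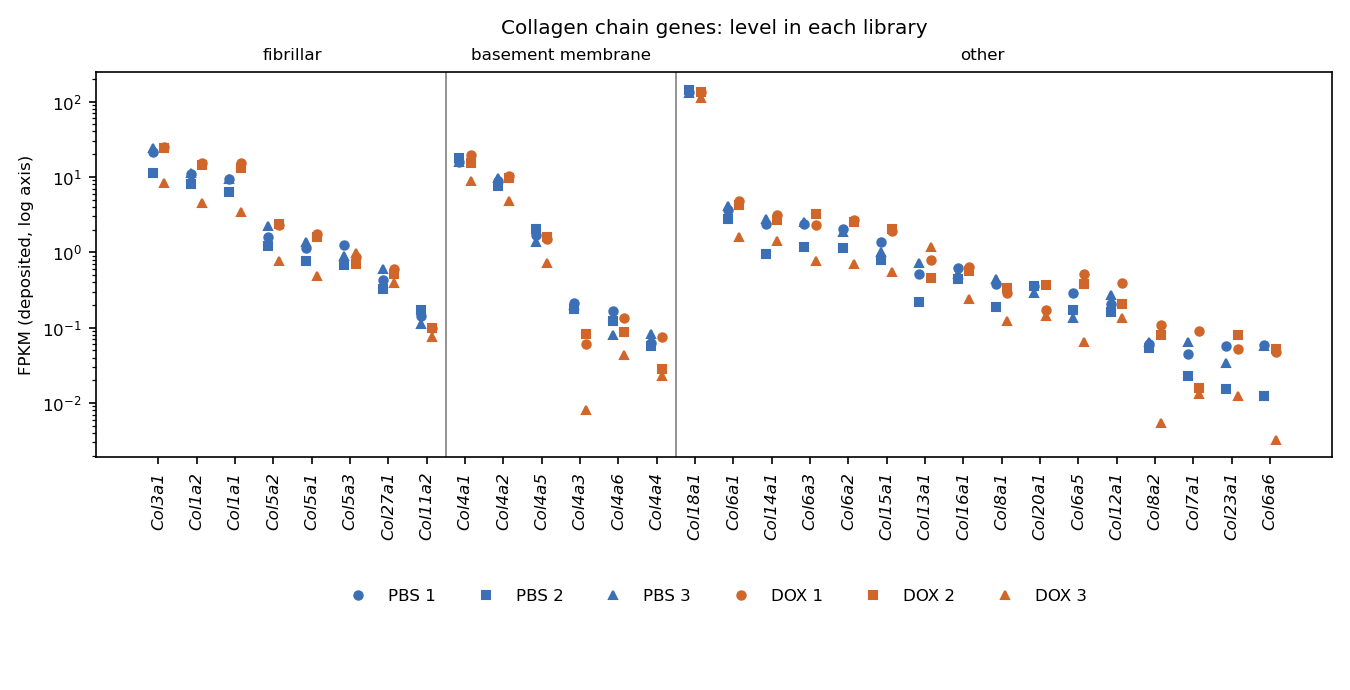
Deposited FPKM (log axis) of the 30 collagen genes past the count filter, by class and in falling order of their mean; blue points are PBS libraries, orange points DOX libraries, and the shape gives the replicate number. Col18a1 lies highest, with a mean of 131.3 FPKM, and the orange triangle of DOX 3 lies lowest for most other genes.

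At the bottom of the range, 11 members did not pass the filter on low counts and were not tested. Col9a3 had 1 to 15 counts in a library, Col25a1 2 to 8 and Col22a1 1 to 6. Col6a4, Col9a1, Col9a2, Col17a1, Col19a1, Col24a1 and Col28a1 had 0 to 3 counts each, so a difference would not have been detectable at this depth. Col11a1, a fibrillar chain best known from cartilage, had 29 counts in DOX 1 and 1 to 5 in the other 5 libraries.

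The comparison of DOX with PBS asked whether collagen transcripts differ in a design of Bche overexpression in hepatocytes, in a study titled for stellate cell activation. Of the 30 members tested, 0 changed (edgeR quasi-likelihood, adjusted p under 0.05, smallest 0.400), against 0.0291% of all 13725 genes. DESeq2, limma-voom and limma on the FPKM values also called 0 members, where DESeq2 called 1.19% of all genes. At an unadjusted p under 0.05 there was 1 member, Col4a3, or 3.33% of those tested, against 9.90% of all genes in either direction and 4.87% lower. The groups did not overlap for 2 members, Col4a3 and Col11a2, both lower in DOX, and for 0 members higher in DOX, where 9.02% of all tested genes were lower and 7.84% higher without overlap. The log2 fold changes were above 0 for 18 and below 0 for 12 members, with a median of 0.14, beside -0.02 for all genes. By class the medians were 0.27 for 8 fibrillar, -0.33 for 6 basement membrane and 0.18 for 16 other collagens, and the difference between classes was not tested. Standard errors of the members ran from 0.13 to 0.82 with a median of 0.39, so for most of them a change of about that size in either direction lies within the 95% interval.

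Among the fibrillar collagens, the type I chains had widely spread DOX libraries. Col1a1 (chromosome 11, 94936224 to 94953042 in GRCm38), the major chain of type I collagen, stood at 51.9, 37.6 and 52.8 CPM in PBS 1 to 3 and at 93.9, 78.1 and 22.5 CPM in DOX 1 to 3. DOX 1 and DOX 2 thus lay above all PBS libraries and DOX 3 below all of them. The log2 fold change of 0.45 (SE 0.43, 95% interval -0.53 to 1.43) did not pass (edgeR adjusted p = 0.755). Without DOX 3 it was 0.86 (SE 0.16) at an adjusted p of 0.290, which does not pass either.

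Col1a2 (chromosome 6, 4504814 to 4541544), the partner chain, which overlaps the unclassified locus Gm43921 on its strand, followed the same order, with 53.2, 42.3 and 55.1 CPM in PBS and 83.6, 75.6 and 25.8 CPM in DOX. The log2 difference between the groups was 0.29 (SE 0.37, with adjusted p = 0.815), and 0.67 (SE 0.13, adjusted p = 0.313) without DOX 3. The ratio of Col1a1 to Col1a2 in FPKM was 0.858, 0.783 and 0.843 in PBS and 0.989, 0.910 and 0.769 in DOX. The transcript ratio was thus close to 1 in all libraries, and its groups overlapped.

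Col3a1 (chromosome 1, 45311538 to 45349706), whose homotrimers mix with type I collagen in the same fibrils, stood at 110.1, 62.8 and 126.5 CPM in PBS and at 144.9, 133.2 and 51.1 CPM in DOX. DOX 1 and DOX 2 again lay above and DOX 3 below all PBS libraries, and PBS 2 was low here too. The log2 difference between the groups was 0.14 (SE 0.38, with adjusted p = 0.929), and 0.48 (SE 0.26) without DOX 3. Col5a1 and Col5a2, the chains of type V collagen, which lies in the core of type I fibrils and limits their width, had lower levels. Col5a1 had 9.16, 6.45 and 11.0 CPM in PBS against 15.6, 13.5 and 4.59 in DOX, and Col5a2 had 9.86, 7.93 and 13.6 against 16.0, 15.7 and 5.62. Their log2 fold changes were 0.34 (SE 0.40) and 0.24 (SE 0.37), and 0.72 (SE 0.22) and 0.60 (SE 0.21) without DOX 3.

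For the remaining fibrillar genes past the count filter, DOX 1 and DOX 2 did not both lie above all PBS libraries. Col5a3, a further type V chain, had 7.25, 4.15 and 5.14 CPM in PBS and 5.58, 4.22 and 6.53 in DOX, with overlapping groups and a log2 fold change of -0.02 (SE 0.25), or -0.17 without DOX 3. Col27a1 had 3.42, 2.72 and 4.82 CPM in PBS and 5.39, 4.37 and 3.64 in DOX, a log2 fold change of 0.29 (SE 0.26), or 0.42 without DOX 3. Col11a2, a type XI chain, had 1.04, 1.33 and 0.803 CPM in PBS against 0.801, 0.768 and 0.648 in DOX, so that the groups were separated by a margin of 0.803 to 0.801 CPM only. The log2 difference between the groups was -0.51 (SE 0.34, with adjusted p = 0.639), and -0.42 (SE 0.39) without DOX 3.

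The stretches before the starts of 3 genes that shared the order of DOX 1 and DOX 2 above and DOX 3 below all PBS libraries (Col3a1 and Col5a1 of the fibrillar class and Col6a3 of type VI) are shown as examples of what lies upstream of such genes. They are the 250 bases before the RefSeq start in GRCm38.p6, read on the strand of the gene (chr1:45311288-45311537 plus, chr2:27886175-27886424 plus and chr1:90843972-90844221 minus). Capitals mark matches on either strand to the CCAAT box, to the GC box GGGCGG, to the TATA word TATAAA and to CAGAC, called the Smad word here after its known use in Smad binding sites.
Col3a1: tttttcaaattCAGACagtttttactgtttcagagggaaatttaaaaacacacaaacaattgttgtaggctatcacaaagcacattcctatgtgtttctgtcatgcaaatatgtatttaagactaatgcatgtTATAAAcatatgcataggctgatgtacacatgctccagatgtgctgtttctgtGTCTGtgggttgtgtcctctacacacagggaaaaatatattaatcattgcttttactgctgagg
Col5a1: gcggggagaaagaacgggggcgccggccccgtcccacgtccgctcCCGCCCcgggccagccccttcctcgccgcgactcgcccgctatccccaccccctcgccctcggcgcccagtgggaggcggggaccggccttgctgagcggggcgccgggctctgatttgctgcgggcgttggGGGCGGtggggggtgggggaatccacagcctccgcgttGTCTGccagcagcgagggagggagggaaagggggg
Col6a3: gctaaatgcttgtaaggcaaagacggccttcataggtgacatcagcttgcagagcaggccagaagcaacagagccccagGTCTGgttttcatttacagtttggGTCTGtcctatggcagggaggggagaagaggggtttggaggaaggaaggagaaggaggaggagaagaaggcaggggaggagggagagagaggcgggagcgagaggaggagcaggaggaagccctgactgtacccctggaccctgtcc

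Col3a1 had the TATA word at -117 and the Smad word at -239 and -64, where -1 is the last base before the start and the position is that of the leftmost base. Col5a1 had the GC box at -205 and -73 and the Smad word at -35, and Col6a3 had the Smad word at -171 and -147. Matches of different motifs did not overlap in these stretches. Among all 32851 windows of the same length in the RefSeq table, which holds several for some genes, the Smad word occurs in 42.2%, the CCAAT box in 33.8%, the GC box in 32.7% and the TATA word in 12.4%. The table matched 34 of the 41 members with 37 windows. Of the 8 fibrillar windows, 5 held the Smad word, 6 the GC box, 3 the CCAAT box and 2 the TATA word. The Smad word was in 1 of 5 basement membrane and 11 of 24 other windows, which makes 17 of 37 in all. The 3 stretches printed were picked from 12 genes with that order across libraries, of which 10 had a window. The Smad word was present before 6 of these 10 genes and absent before 4 (Col6a1, Col6a5, Col8a2 and Col15a1), so it is not common to them.

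**Figure D2:**
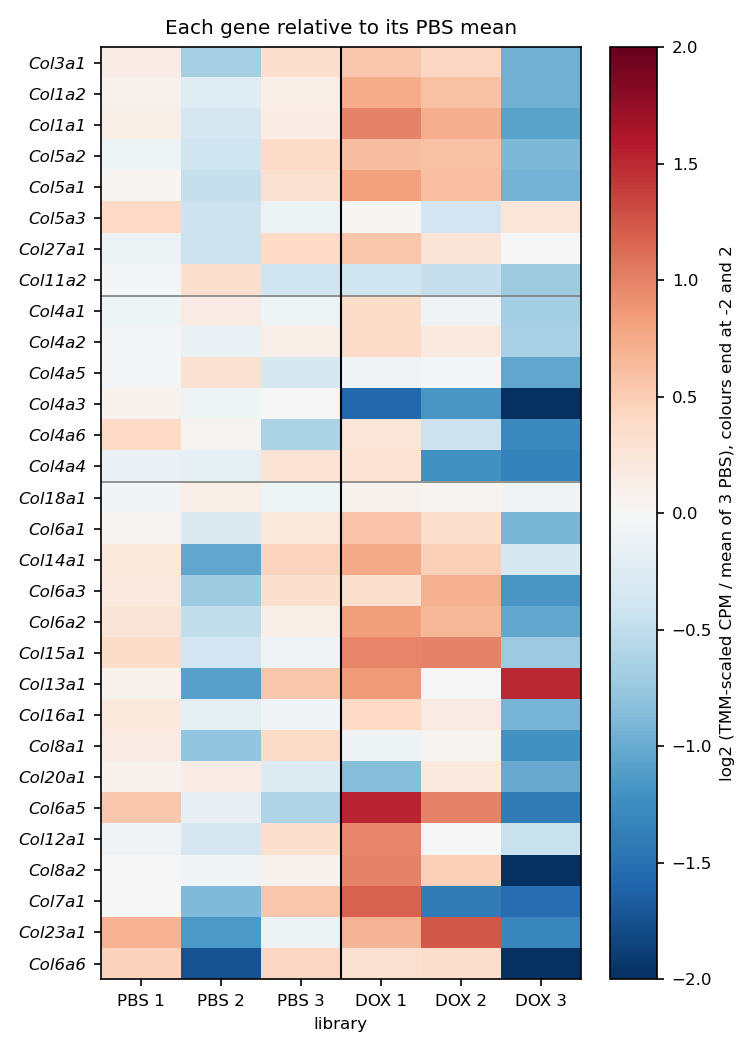
Log2 of each gene's TMM-scaled CPM over its mean in the 3 PBS libraries, for the 30 tested collagen genes (rows, by class) in 6 libraries (columns); the scale ends at -2 and 2. The column of DOX 3 is blue for most rows and that of DOX 1 red for most fibrillar and type VI rows, while Col18a1 is near white and Col4a3 is blue in all 3 DOX columns.

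The 6 basement membrane genes stand in 3 head-to-head pairs, each with 2 genes read away from each other. Col4a1 and Col4a2, whose chains form the common type IV molecule, were the abundant ones. Col4a1 had 97.7, 116.3 and 98.0 CPM in PBS and 134.7, 99.6 and 64.6 in DOX, which gave -0.06 as log2 fold change (SE 0.23, 95% interval -0.59 to 0.47, with adjusted p = 0.951). Col4a2 had 52.9, 49.0 and 58.7 CPM in PBS and 69.6, 61.6 and 34.2 in DOX, which gave 0.04 as log2 fold change (SE 0.23, 95% interval -0.48 to 0.57, with adjusted p = 0.967). DOX 3 lay below all PBS libraries for both genes, and without it the log2 fold changes were 0.17 (SE 0.15) and 0.30 (SE 0.11). Their FPKM ratio was 1.58 to 2.31 over the 6 libraries, highest in PBS 2.

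On chromosome 8, the annotated transcripts of Col4a1 (11198423 to 11312826, minus strand) and Col4a2 (11312805 to 11449287, plus strand) share their first 22 bases, shown on the plus strand at chr8:11312805-11312826 because the pair meets there. Capitals mark a GC box.
Col4a1 and Col4a2: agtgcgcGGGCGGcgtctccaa
Reads in these bases cannot be assigned to either gene without strand, and the sources used here do not state the use of strand. Gm15418 and Gm15419, annotated antisense genes, also overlap Col4a1 and Col4a2.

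Col4a3, a chain of the specialised type IV net known from kidney, lung and inner ear, differed most between the groups. It had 76, 52 and 62 counts in PBS and 21, 25 and 3 in DOX, or 1.75, 1.57 and 1.66 CPM against 0.561, 0.739 and 0.0810. All 3 DOX libraries lay below all 3 PBS libraries, which were close to each other (1.66 ± 0.0904 against 0.460 ± 0.340 CPM, SD, n = 3 each). The DOX group stood at 0.276 times the PBS level (95% interval 0.109 to 0.702), a log2 fold change of -1.85 (SE 0.59). This did not pass over all genes (edgeR adjusted p = 0.400, from 0.073 with DESeq2 to 0.736 over all settings), and an exact permutation test over libraries (two-sided) gave 0.1, its lower limit with 3 in each group. Without DOX 3, which held 3 counts, the log2 fold change was -1.35 (SE 0.34, adjusted p = 0.453).

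Col4a4, which is read from the opposite strand with 71 bases between the annotated starts of the pair, had 0.623, 0.605 and 0.829 CPM in PBS and 0.827, 0.295 and 0.270 in DOX. Its groups overlapped, and the log2 fold change was -0.55 (SE 0.51, adjusted p = 0.742), or -0.27 (SE 0.52) without DOX 3. DOX 1, low for Col4a3, was thus not low for Col4a4, whose libraries held 10 to 31 counts. The FPKM ratio of Col4a3 to Col4a4 was 3.33, 3.08 and 2.37 in PBS and 0.802, 2.96 and 0.355 in DOX, with an overlap at DOX 2. The bases between the starts (chr1:82586850-82586920, plus strand) are shown because both genes begin at their edges, and they held none of the 4 words.
Col4a4 and Col4a3: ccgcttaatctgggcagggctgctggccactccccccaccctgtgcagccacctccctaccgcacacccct

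The third pair lies on chromosome X with 1308 bases between the starts. Col4a5, a partner of Col4a3 and Col4a4 in the specialised net, had 10.3, 13.1 and 8.48 CPM in PBS and 10.2, 10.5 and 5.16 in DOX, which gave -0.31 as log2 fold change (SE 0.28, with adjusted p = 0.738). Col4a6 had 1.04, 0.817 and 0.508 CPM in PBS and 0.934, 0.591 and 0.324 in DOX, a log2 fold change of -0.36 (SE 0.48). The groups overlapped for both, and without DOX 3 both log2 fold changes were -0.04 (SE 0.19 and 0.46).

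**Figure D3:**
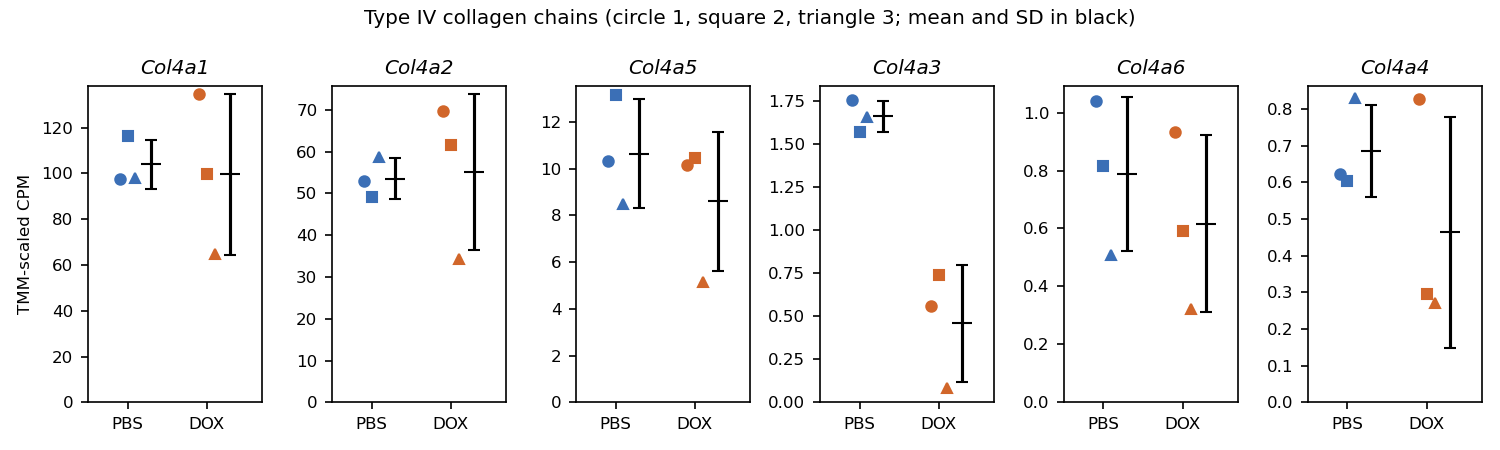
TMM-scaled CPM of the 6 type IV chain genes in PBS (blue) and DOX (orange) libraries, with the mean and SD of the 3 libraries in black beside the points; each panel has its own axis from 0. Only Col4a3 has all DOX points (0.0810 to 0.739 CPM) below all PBS points (1.57 to 1.75 CPM).

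Among the other collagens, Col18a1 was the steadiest. It had 958.1, 1095.8 and 933.2 CPM in PBS and 1050.3, 1030.1 and 952.4 in DOX. The groups overlapped, DOX 3 lay within the PBS range, and the log2 fold change of 0.02 (SE 0.13) had a 95% interval of -0.27 to 0.32, and was 0.07 (SE 0.14) without DOX 3. Col18a1 overlaps Slc19a1 on the opposite strand, so without strand some of its reads may belong to that gene. Col15a1, the related multiplexin of vessel and muscle basement membranes, had 6.88, 4.12 and 5.08 CPM in PBS and 10.6, 10.6 and 3.24 in DOX. The log2 difference between the groups was 0.60 (SE 0.41, with adjusted p = 0.658), and 0.98 (SE 0.22, adjusted p = 0.399) without DOX 3.

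The 3 common type VI genes, whose chains build the beaded filaments around cells, also had DOX 1 and DOX 2 above and DOX 3 below all PBS libraries. Col6a1 had 13.6, 10.8 and 15.2 CPM in PBS and 19.7, 16.8 and 6.99 in DOX. Col6a2 had 11.4, 6.81 and 10.5 against 17.0, 15.1 and 4.64, and Col6a3 had 23.8, 12.7 and 25.9 against 26.1, 34.3 and 9.29. The groups overlapped in each of them. The log2 fold changes were 0.14 (SE 0.33), 0.35 (SE 0.42) and 0.15 (SE 0.43), and 0.47, 0.75 and 0.53 without DOX 3. Col6a5, a rarer type VI chain, had 2.59, 1.60 and 1.18 CPM in PBS and 5.12, 3.54 and 0.675 in DOX (0.79 as log2 fold change, SE 0.62). Without DOX 3 it stood at 1.27 (SE 0.36, unadjusted p = 0.00879, edgeR adjusted p = 0.517).

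The transmembrane Col13a1 ran the other way across the DOX libraries. It had 3.09, 1.39 and 4.33 CPM in PBS and 5.31, 2.95 and 8.37 in DOX, so that DOX 3 was its highest library. The log2 fold change of 0.91 (SE 0.46) was the most positive of the 30 (adjusted p = 0.548), and was 0.49 without DOX 3. Col23a1, also transmembrane, had 0.0908 to 0.323 CPM in PBS and 0.0810 to 0.473 in DOX, with a log2 fold change of 0.49 (SE 0.71). Of the FACIT chains, which decorate fibrils, Col14a1 had 15.9, 6.66 and 18.7 CPM in PBS and 23.3, 19.2 and 11.0 in DOX (0.37 as log2 fold change, SE 0.38). For Col16a1 it was -0.02 (SE 0.33) and for Col20a1 -0.45 (SE 0.36), with overlapping groups. The network chains Col8a1 and Col8a2 differed by -0.33 (SE 0.43) and 0.21 (SE 0.75) on the log2 scale, and Col7a1 of the anchoring fibrils had -0.00094 (SE 0.77) at 5 to 33 counts a library. Without DOX 3 the log2 fold changes were 0.94 for Col23a1, 0.63 for Col14a1, 0.29 for Col16a1, -0.24 for Col20a1, -0.02 for Col8a1, 0.76 for Col8a2 and 0.41 for Col7a1.

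The order of the DOX libraries set the spread of most members. DOX 3 was the lowest of the 6 libraries for 25 of the 30 tested genes, or 83.3%, where it was lowest for 25.6% of all tested genes. DOX 1 and DOX 2 lay above and DOX 3 below all PBS libraries for 12 of the 30, or 40.0%, against 2.09% of all genes. These 12 were 5 fibrillar genes (Col1a1, Col1a2, Col3a1, Col5a1 and Col5a2), Col4a2, 4 type VI genes (Col6a1, Col6a2, Col6a3 and Col6a5), Col15a1 and Col8a2. DOX 3 was singled out by its low collagen share, so the 83.3% and the 40.0% follow in part from that choice and are no test. The exceptions to DOX 3 as the lowest library were Col5a3, Col13a1, Col14a1 and Col27a1, which were lowest in PBS 2, and Col18a1, lowest in PBS 3.

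Without DOX 3, the median of the same 30 genes on the log2 fold change scale was 0.45 against -0.00431 for all genes, with 0.54 for the fibrillar, -0.04 for the basement membrane and 0.51 for the other class. In that fit 10 of the 30 had an unadjusted p under 0.05, of which 9 were higher and Col4a3 was lower, where 7.25% of all genes reached that p and 3.83% were higher. DOX 3 was left out because of its low collagen share, so these counts follow in part from that choice and are no test of DOX. Of the 30, 0 passed over all genes (edgeR, smallest adjusted p 0.290). Leaving out DOX 1 instead gave class medians of 0.02, -0.61 and 0.00097. The fold changes of the members thus depended on which DOX library was counted, and 0 members were called in any of these fits.

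**Figure D4:**
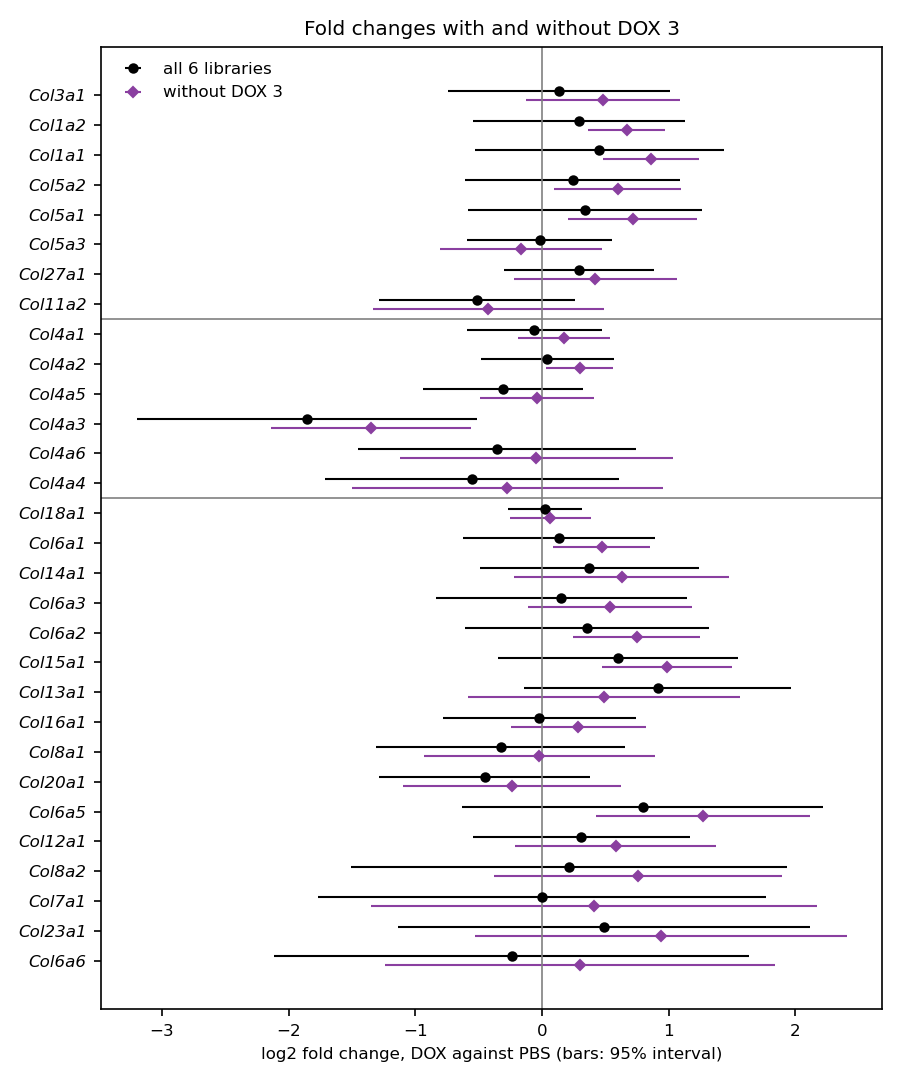
Log2 fold change of DOX against PBS with its 95% interval for the 30 tested collagen genes, from all 6 libraries (black) and without DOX 3 (purple). Most purple points lie to the right of the black ones, Col18a1 stays near 0 with a narrow interval, and Col4a3 lies left of 0 in both.

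Summed over each class, the fibrillar genes stood at 246.0, 165.5 and 269.9 CPM in PBS and at 366.6, 325.6 and 120.5 in DOX. The type IV genes stood at 164.4, 181.4 and 168.2 CPM against 216.8, 173.2 and 104.6. The other collagens without Col18a1 stood at 89.5, 53.8 and 93.3 CPM against 122.0, 115.1 and 50.1. The groups overlapped in all 3 sums. The mean of DOX was 1.19 times that of PBS for the fibrillar sum and 1.52 times without DOX 3, and 0.962 and 1.14 times for the type IV sum. PBS 2 was low for the fibrillar sum and highest of the PBS libraries for the type IV sum, so the ratio of fibrillar to type IV genes in summed FPKM was 1.05 there against 1.72 and 1.84 in the other PBS libraries, and 1.94, 2.15 and 1.31 in DOX.

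Marker lists of the cells that can make collagen differed between the same libraries. In bulk RNA, fewer cells of a type and less RNA per cell cannot be told apart. The myofibroblast list (10 genes, 6 tested) summed to 23.9 to 28.9 CPM in PBS and 40.0, 34.2 and 17.6 in DOX, and all 6 tested genes were lowest in DOX 3. Of these 6, 4 had a log2 fold change above 0 and 2 below, with a median of 0.13. Among them, Acta2, the smooth muscle actin, had 3.95, 2.84 and 4.17 CPM in PBS and 8.75, 6.23 and 2.51 in DOX. The portal fibroblast list (12 genes, 10 tested) summed to 57.3 to 65.1 CPM in PBS and 95.4, 75.4 and 44.9 in DOX, with 8 of 10 lowest in DOX 3. Here 8 genes had a log2 fold change above 0 and 2 below, with a median of 0.30 and a minimum of -0.66. Eln, the elastin gene, had 19.1, 23.4 and 17.4 CPM in PBS and 32.0, 32.0 and 14.8 in DOX. The sums of these lists thus fell from DOX 1 to DOX 2 to DOX 3, as the fibrillar sum did. The stellate, cholangiocyte and macrophage sums below fell in the same order, so it was not particular to these lists. The endothelial and hepatocyte sums did not. The part of any list in the collagen results was not tested.

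The list of hepatic stellate cells (16 genes, 15 tested) summed to 228.2, 158.9 and 319.6 CPM in PBS and 316.7, 260.9 and 203.7 in DOX. Of its tested genes, 14 had a log2 fold change above 0 and 1 below, with a median of 0.28. Among them, 2 were lowest in DOX 3 and 13 in PBS 2. Of all 13725 tested genes, 3518 were lowest in DOX 3 and 2675 in PBS 2. Log2 fold changes were above 0 for 6447 of all tested genes and below 0 for 7278. Lrat, the retinol esterifying enzyme of stellate cells, had 6.53, 2.15 and 12.3 CPM in PBS and 12.5, 10.1 and 7.50 in DOX, so DOX 3 lay within the PBS range. The endothelial list (13 genes) was lowest in PBS 2 for 12 genes and summed to 190.2, 92.6 and 181.7 CPM in PBS and 279.2, 154.9 and 254.6 in DOX. It had 12 genes with a log2 fold change above 0 and 1 below, with a median of 0.78. The cholangiocyte list (11 genes) summed to 302.1, 403.6 and 280.9 CPM in PBS and 261.6, 236.0 and 130.8 in DOX, with 10 of 11 genes lowest in DOX 3. The groups did not overlap in this sum, which was lower in DOX. Nor did they in the hepatocyte sum below, which was higher in DOX, though 3 of its 9 genes had a log2 fold change below 0. Of the 11 cholangiocyte genes, all 11 had a log2 fold change below 0, with a median of -0.66. Of these, 4 were lower in DOX without overlap, beside 9.02% of all tested genes. The part of this list in the values of Col4a3 was not tested. Genes with 0 counts in at least 1 library were Bmp10, Mfap5 and Gli1, and none of the marker genes was at 0 in all 6. The hepatocyte list summed to 87576 to 101788 CPM in PBS and 103097 to 159434 in DOX, and the macrophage list to 620.3 to 712.9 and 623.3 to 793.4. Of the 9 hepatocyte genes, 6 had a log2 fold change above 0 and 3 below, with a median of 0.10. Without overlap, 2 of the 9 were higher and 1 lower in DOX, beside 7.84% and 9.02% of all tested genes. Of the 8 macrophage genes, 4 were above 0 and 4 below, with a median of 0.02. No marker gene of these 7 lists passed over all genes (edgeR, smallest adjusted p 0.216).

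**Figure D5:**
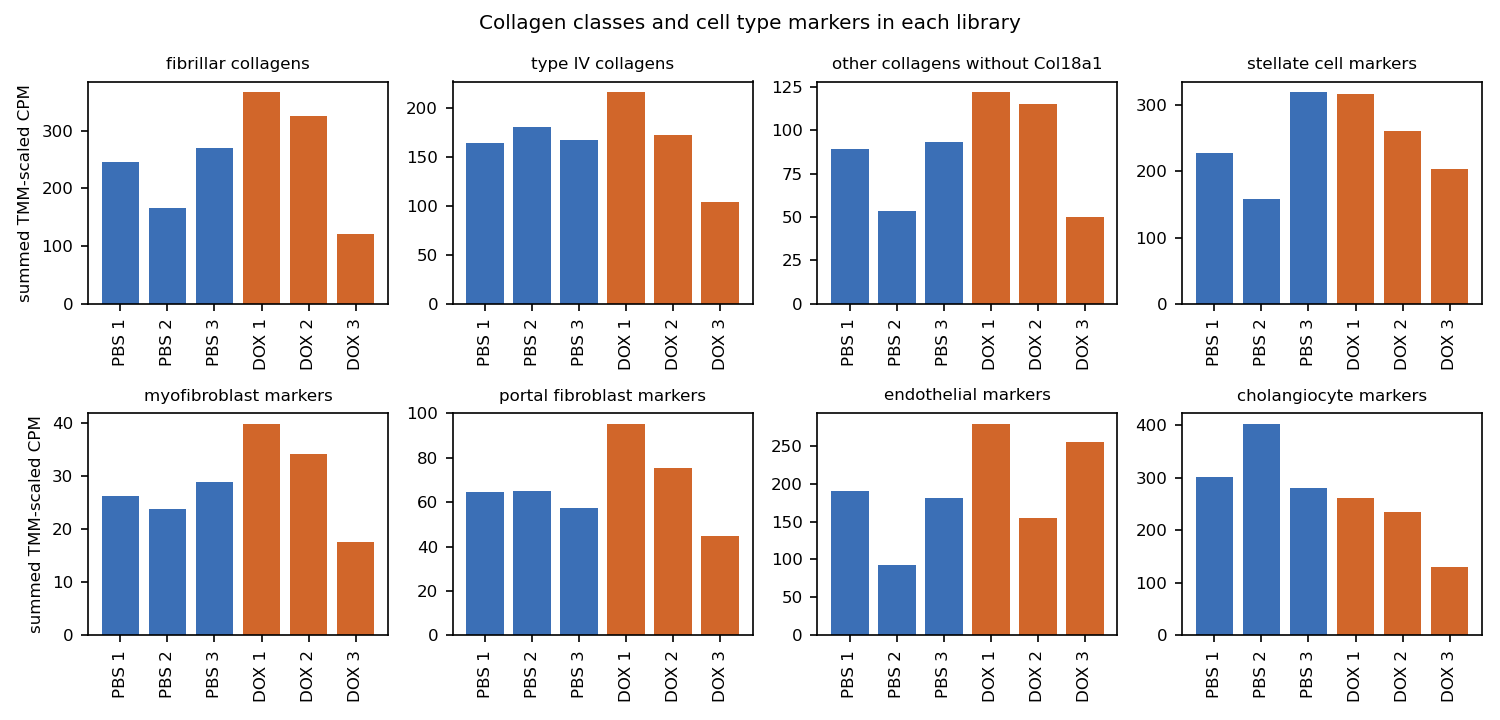
Summed TMM-scaled CPM in each library (bars from 0, PBS blue, DOX orange) of the collagen classes and of 5 cell type marker lists. The bars of DOX 3 are lowest for the 3 collagen classes, the myofibroblast, portal fibroblast and cholangiocyte lists, but not for the stellate and endothelial lists.

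Of 26 tested genes for hydroxylation, folding and export, 0 changed (edgeR), 16 had a log2 fold change above 0, and the median was 0.11. Their sum was 2868 to 2942 CPM in PBS and 3146 to 3615 in DOX, so that DOX 3, the lowest of the DOX libraries, lay above all PBS libraries, and 7 of the 26 genes were lowest in DOX 3. The groups did not overlap for 8 of the 26, with 6 higher and 2 lower in DOX, beside 16.9% of all tested genes, 7.84% of them higher. Sec24d, a coat protein of the vesicles that carry procollagen, had 80.5, 79.4 and 100.7 CPM in PBS and 124.5, 105.1 and 107.4 in DOX (0.37 as log2 fold change, SE 0.12, adjusted p = 0.423). Fkbp14, a prolyl isomerase of the endoplasmic reticulum, had 6.65 to 8.35 CPM in PBS and 9.02 to 9.64 in DOX (0.34 as log2 fold change, SE 0.14), and Sec13 had 0.23 (SE 0.09). Colgalt2, a collagen galactosyltransferase, was low at 0.304 and 0.138 CPM (log2 fold change -1.11, SE 0.50).

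Of 11 tested genes for procollagen trimming and crosslinking, 0 changed, with a median of 0.03. Adamts2, the protease that removes the N-terminal propeptide, had 11.4, 7.41 and 10.9 CPM in PBS and 20.6, 10.4 and 8.61 in DOX (0.42 as log2 fold change, SE 0.32). For Adamts14, a related protease, the log2 fold change was -0.70 (SE 0.41), and for Pxdn, the peroxidasin that crosslinks type IV collagen, -0.41 (SE 0.25). Of 9 tested genes of collagen breakdown and uptake, 0 changed, with a median of 0.04. Mrc2, an endocytic collagen receptor, had 3.37, 3.36 and 4.33 CPM in PBS and 5.39, 7.50 and 2.54 in DOX, and Mmp14, a membrane protease, had a log2 fold change of -0.16 (SE 0.12).

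Of 16 tested partners of type IV collagen in basement membranes, 0 changed and 11 had a log2 fold change below 0, with a median of -0.26. The laminin chain Lama5 had 14.6, 25.4 and 13.0 CPM in PBS and 12.9, 13.6 and 8.29 in DOX (-0.60 as log2 fold change, SE 0.28). Nid1, which links laminin to type IV collagen, had 118.6, 126.2 and 105.6 against 121.9, 71.9 and 67.0. Of 7 tested collagen receptors 0 changed, and Ddr1, a receptor kinase of epithelial cells, had 29.0, 38.7 and 24.4 CPM in PBS and 22.1, 24.0 and 14.8 in DOX (-0.59 as log2 fold change, SE 0.21, adjusted p = 0.444).

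Of 11 tested upstream signals 0 changed and 10 had a log2 fold change below 0, with a median of -0.17. Tgfb2, a TGF-beta ligand, had 7.82, 13.1 and 6.55 CPM in PBS and 5.45, 6.03 and 2.51 in DOX (-0.97 as log2 fold change, SE 0.36, adjusted p = 0.457). Smad7, an inhibitor of TGF-beta signalling that is also its target, had 25.1, 28.1 and 41.3 against 20.1, 24.0 and 18.2 (-0.60 as log2 fold change, SE 0.19, adjusted p = 0.400). Pdgfb, a growth factor for stellate cells, had 7.29, 7.72 and 9.26 against 5.95, 5.73 and 3.91 (-0.64 as log2 fold change, SE 0.20, adjusted p = 0.399). The groups did not overlap for these 3 genes, all lower in DOX, beside 9.02% of all genes. DOX 1 and DOX 2, the libraries with the highest fibrillar sums, were below all PBS libraries for these 3 genes. DOX 3, with the lowest fibrillar sum, was the lowest of the 6 libraries for all 3. A link of these genes to the collagens was not tested.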

How the data were processed

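The data are 6 libraries of mouse liver RNA, with 3 each under the labels PBS and DOX. Per the labels' protocols, RNA came from a column kit and 1.3 ug entered a SMARTER mRNA-Seq kit. The authors deposited raw read counts per gene and FPKM values for the same libraries. The FPKM equal the deposited counts over 1 length per gene and the column total (18913 of 18913 genes with counts in at least 2 libraries, relative tolerance 1e-05). Builds GRCm38 and mm10 appear in the submitters' processing notes. The aligner, the counter and its use of strand: not given in the sources used here. Counts of replicates differed beyond sampling noise (chi-square over its degrees of freedom 41.9 to 132.2).

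The test of the counts was that of edgeR 4.0.16, run in R 4.3.3 (filterByExpr, TMM, quasi-likelihood, no block), with Benjamini-Hochberg adjustment over 13725 genes and a threshold of 0.05. Standard errors and 95% intervals derive from the F statistic. Single values were tested by exact two-sided permutation over libraries. The code was tested on simulated data, where edgeR recovered 68% and DESeq2 78% of 2-fold changes at the threshold of 0.05. Of their calls, 10.5% and 23.3% were false there, above the nominal share. The changed genes there were drawn from all 13725 tested genes, and each gene was simulated independently. The median SE in the data was 0.16 for all tested genes and 0.39 for the collagens. The recovered shares therefore do not hold for the collagens. Alternatives were other scalings, filters, DESeq2 1.42.0, limma-voom (limma 3.58.1), the replicate block, limma on log2 of FPKM plus 1 or 0.1, and leaving out each library. The floor is 3 counts, or 0.073 to 0.0914 CPM. The members, classes and lists were chosen with earlier results of these data known. Genes were named by a rule on level, p and overlap within each class, which took 28 of the 30 tested members, leaving out Col12a1 and Col6a6, and up to 4 of smallest p from each list. Coordinates are from GENCODE M21 on GRCm38, and promoter windows from RefSeq.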

Additional observations from a re-analysis of the deposited data

How the results depend on the processing

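No collagen gene passed the threshold under any of the 16 settings, which include the reported one. Over all genes, 4 changed in the reported fit, 176 with DESeq2, 2 with limma-voom and 61 without the filter on low counts. The replicate numbers have no stated meaning, and whether they pair the libraries was not settled. Deviations from the group mean correlated at 0.192, 0.130 and 0.00975 for the same number, and at -0.183 to 0.0565 for different numbers. The fit with the replicate block called 21 genes, 0 of them collagens. Of the 28 named collagen genes, 16 kept their sign in every alternative that gave them a value and 12 changed it in at least 1, and 6 (Col4a4, Col4a6, Col7a1, Col8a2, Col11a2 and Col23a1) had no value with the filter at a mean of 1 CPM. The cause was not tested. With library size alone as the scaling, which moved the median of all genes to -0.149, the log2 fold change was -0.106 for Col18a1 and -0.080 for Col4a2. On log2 of FPKM plus 0.1 it was -0.109 for Col18a1, -0.074 for Col3a1, -0.00107 for Col1a2, -0.149 for Col4a2, -0.106 for Col6a1, -0.091 for Col6a3 and -0.013 for Col8a2. On log2 of FPKM plus 1 it was -0.108 for Col18a1, -0.064 for Col3a1, -0.126 for Col4a2, -0.058 for Col6a1 and -0.028 for Col6a3. With limma-voom it was -0.017 for Col4a2, -0.0053 for Col6a3 and -0.447 for Col8a2, and with the replicate block -0.012 for Col4a2 and -0.019 for Col8a2. Col5a3 stood at 0.0017 with DESeq2, and Col7a1 at 0.011 with DESeq2, 0.010 with DESeq2's size factors in edgeR and 0.0040 without the filter. Leaving out each library in turn gave -0.022 to 0.10 for Col18a1, -0.11 to 0.48 for Col3a1, -0.34 to 0.17 for Col4a1, -0.16 to 0.30 for Col4a2, -0.14 to 0.47 for Col6a1, -0.23 to 0.53 for Col6a3, -0.19 to 0.23 for Col5a3, -0.28 to 0.29 for Col16a1, -0.43 to 0.76 for Col8a2, -1.44 to 0.41 for Col7a1 and -0.021 to 1.02 for Col23a1. With 3 libraries a group and the DOX libraries this far apart, changes within the intervals given cannot be seen.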
